A study of Mus musculus with 2 samples.

Results

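The levels of miR-142a, miR-223, miR-511 and miR-150 were examined in bone marrow-derived macrophages (BMDMs), as both arms of each hairpin, which gave 8 of the 1915 mature miRNA names in the count table. The names were chosen for the lineage each hairpin is known for. The samples were 2 libraries of small RNA, biological replicates 1 and 2 of a single condition, so the libraries could be compared with each other but not with a treated or mutant group. The cells came from wild type mice of the C57/BL6 strain at an age of 8 weeks and were left unstimulated. Per the study's methods, marrow cells were grown in medium conditioned by L cells, a mouse fibroblast line used as a source of macrophage growth factor, and cells that did not adhere were removed before use. Replicate 1 held 7322969 miRNA counts in all and replicate 2 held 8094314. Levels are given as reads per 1000000 miRNA counts of the library (RpM). A mature miRNA is covered by a single read, so no scaling for length was made.

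A miRNA hairpin is cut into a short duplex, one strand of which is usually kept in an Argonaute protein while the other is degraded. The kept strand recognises target mRNAs mainly through its seed, bases 2 to 8 counted from the 5′ end. miR-142 is made in blood cells of all lineages and in few other cells. miR-223 is a miRNA of the myeloid lineage, abundant in neutrophils and monocytes, where it restrains the expansion of granulocyte progenitors. miR-511 is processed from an intron of Mrc1, the gene of the macrophage mannose receptor CD206. miR-150 is characteristic of mature lymphocytes, in which Myb is a known target, and stands here as the lymphoid contrast.

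The mature sequences show which seed each arm would carry and how the arms differ. They are given 5′ to 3′ with the seed in capitals, as listed by RefSeq on GRCm38.p6, which held 6 of the 8.
mmu-miR-142a-5p: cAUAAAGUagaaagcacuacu
mmu-miR-142a-3p: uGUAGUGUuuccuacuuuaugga
mmu-miR-223-3p: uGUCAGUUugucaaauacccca
mmu-miR-223-5p: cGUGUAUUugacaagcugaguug
mmu-miR-511-3p: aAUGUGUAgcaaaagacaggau
mmu-miR-150-3p: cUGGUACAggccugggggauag
The other names are mmu-miR-511-5p and mmu-miR-150-5p, and the species prefix mmu is left out from here on. No seed was shared between these 6 arms or with any other of the 1679 mature miRNAs in that list (0 names). Of the 1915 names in the count table, 1623 have a sequence in that list, and the rest were not searched for these seeds. The arms of miR-142a and of miR-223 lie in their hairpins as follows, with both mature arms in capitals.
Mir142: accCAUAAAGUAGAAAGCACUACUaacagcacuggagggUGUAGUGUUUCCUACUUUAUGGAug
Mir223: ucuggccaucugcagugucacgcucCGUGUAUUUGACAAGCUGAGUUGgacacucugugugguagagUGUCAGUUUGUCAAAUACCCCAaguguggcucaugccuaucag

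Each of the 4 hairpins has its own locus in the GENCODE annotation of GRCm38. Mir142 lies at chr11:87756864-87756927 on the plus strand, in intron 1 of the long noncoding RNA gene Mir142hg. Mir223 lies at chrX:96242817-96242926 on the plus strand, within an exon of the noncoding transcript F630028O10Rik. Mir511 lies at chr2:14261003-14261081 on the plus strand, in intron 5 of Mrc1 and on the same strand as that gene. Mir150 lies at chr7:45121757-45121821 on the plus strand, outside any other annotated gene. The Mir142 locus is also annotated on the opposite strand as Mir142b, whose mature miRNA is the reverse complement of 20 bases of miR-142a-3p (chr11:87756906-87756925, minus strand) and shares a run of 10 bases with miR-142a-5p. miR-142b had 0 counts in replicate 1 and 1 count in replicate 2, so almost no counts of this locus stood under that name. No other name in the table held the same pair of counts as a member with at least 10 counts (0 names).

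Counts of miR-142a and miR-223 were high, those of miR-511 were intermediate and those of miR-150 were low. miR-142a-5p had 271173 counts in replicate 1 and 236776 in replicate 2, or 37030 and 29252 RpM. Its mean of 33141 ± 5500 RpM (SD, n = 2), a share of 3.31% of all miRNA counts, placed it at rank 5. The most abundant miRNA of the table, miR-21a-5p, exceeded it by a factor of 7.55 in replicate 1 and 8.79 in replicate 2. miR-142a-3p, from the other arm of the same hairpin, had 44006 and 29352 counts, or 6009 and 3626 RpM. Its mean of 4818 ± 1685 RpM (SD, n = 2) gave rank 26. Both arms of miR-142a thus stood among the abundant miRNAs of these cells, and both were lower in replicate 2.

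miR-223-3p, the arm usually meant by miR-223, had 44323 and 36301 counts, or 6053 and 4485 RpM. The mean was 5269 ± 1109 RpM (SD, n = 2), at rank 23. miR-223-3p and miR-142a-3p could not be ordered in replicate 1, where their 95% Wilson intervals overlapped, from 5997 to 6109 RpM and from 5954 to 6066 RpM. In replicate 2 miR-223-3p was 1.24-fold the higher, yet the gap between the means was smaller than the SD of either. The ratio of miR-142a-5p to miR-223-3p was similar in both libraries, at 6.12 and 6.52. The minor arm miR-223-5p had 3563 and 3154 counts, or 487 and 390 RpM, at rank 87.

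miR-511-3p had 3250 and 2838 counts, or 444 and 351 RpM, with a mean of 397 ± 65.9 RpM (SD, n = 2) at rank 93. miR-511-5p had 479 and 624 counts, or 65.4 and 77.1 RpM, at rank 166, and was the single member that was higher in replicate 2. The ratio of miR-223-3p to miR-511-3p was 13.6 and 12.8. Even the minor arm of miR-223 was close to the main arm of miR-511, which it exceeded 1.10-fold and 1.11-fold. The small RNA table holds no mRNA, so the Mrc1 transcript was not measured beside miR-511.

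The lymphoid miR-150-5p had 202 and 88 counts, or 27.6 and 10.9 RpM. The 95% Wilson intervals, 24.0 to 31.7 RpM and 8.83 to 13.4 RpM, did not overlap. The mean was 19.2 ± 11.8 RpM (SD, n = 2) at rank 261, and miR-142a-5p exceeded miR-150-5p 1342-fold and 2691-fold. miR-150-3p had 3 counts in replicate 1 and 0 in replicate 2, at or under the limit that a count of 0 allows (0.410 and 0.371 RpM). In such bulk samples, fewer cells of a type cannot be told apart from less of the RNA per cell. Reads copied by PCR and carrying no molecular identifier do not each stand for a separate molecule, so Wilson intervals and these limits cover counting error alone.

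**Figure D1:**
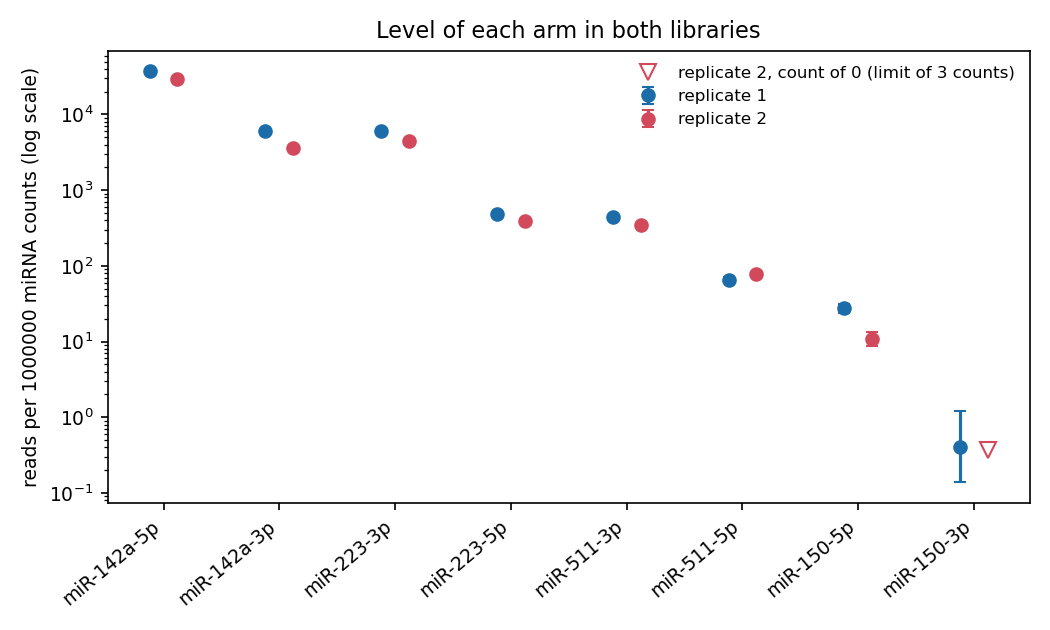
Level of each of the 8 mature miRNAs in replicate 1 and replicate 2, in reads per 1000000 miRNA counts on a log scale; bars are 95% Wilson intervals and are mostly smaller than the points. The levels run from 37030 RpM for miR-142a-5p in replicate 1 to the single-digit counts of miR-150-3p, whose count of 0 in replicate 2 is drawn as an open triangle at the limit of 3 counts.

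The order of the hairpins, with both arms summed, was the same in both libraries. miR-142a held 4.30% and 3.29% of all counts, miR-223 held 0.654% and 0.487%, miR-511 held 0.0509% and 0.0428%, and miR-150 held 0.00280% and 0.00109%. miR-142a, miR-223 and miR-511 together held 4.41% ± 0.842 (SD, n = 2), of which miR-142a-5p alone made up 73.9% in replicate 1 and 76.6% in replicate 2.

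The miRNAs nearest in mean level to the main arm of each hairpin showed how far these places were resolved by 2 libraries. miR-142a-5p stood between miR-146a-5p (27603 and 59649 RpM) and miR-30d-5p (27347 and 35896 RpM), and it was above both in replicate 1 and below both in replicate 2. miR-223-3p was lower than miR-221-3p (6587 and 5396 RpM) in both libraries, and the gap between their means, 723 RpM, was smaller than the SD of either. Its order with miR-27a-3p (5338 and 5171 RpM) differed between the libraries. miR-511-3p was level with miR-674-3p (333 and 474 RpM) and miR-29c-3p (410 and 384 RpM), and its order with each differed between the libraries. The mean of miR-150-5p differed by less than its SD from those of miR-429-3p (19.6 ± 0.634 RpM, SD, n = 2), a miRNA of the epithelial miR-200 family, and of miR-3964 (19.1 ± 1.76 RpM, SD, n = 2).

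The 4 hairpins used their arms differently. In miR-142a the 5p arm was the main one, with 86.0% of the counts of both arms in replicate 1 (95% interval 85.9 to 86.2) and 89.0% in replicate 2 (88.9 to 89.1). In miR-223 the 3p arm was the main one and the 5p arm held 7.44% (7.21 to 7.68) and 7.99% (7.73 to 8.27). miR-511 also favoured its 3p arm, and its 5p arm held 12.8% (11.8 to 14.0) and 18.0% (16.8 to 19.3). In miR-150 the 5p arm held 98.5% (95.8 to 99.5) in replicate 1, and in replicate 2 its 3p arm had 0 of 88 counts, which allows a share of up to 3.41% by the limit of 3 counts and 4.18% by the Wilson interval. Every interval lay on one side of equal use. The exact two-sided binomial test of both arms within a library, which covers counting error, gave p = 5.59e-56 and p = 6.46e-27 for miR-150 and, in both libraries, values too small to be represented for the other hairpins.

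Of the 749 hairpins with both arms named in the table, 176 had at least 100 counts summed, and their arm use gave the background. Most were one-sided, since the main arm held at least 90% in 119 of the 176 and 97.2% in the median hairpin. The main arm held 87.5% ± 2.07 (SD, n = 2) in miR-142a, 84.6% ± 3.66 in miR-511 and 92.3% ± 0.391 in miR-223, all below that median, and 99.3% ± 1.03 in miR-150. Hairpins were also compared among the 20 with the most counts, a number chosen after the values were seen. By the mean of both libraries, miR-142a was the least one-sided of these, followed by miR-221 (88.2%) and miR-223. The order of miR-142a and miR-221 differed between the libraries and was not resolved. The minor 5p arm of miR-221 held 8.93% in replicate 1 and 14.8% in replicate 2, while the main 5p arm of miR-142a held 86.0% and 89.0%. Over all 176 hairpins, 27.3% were less one-sided than miR-142a. In a ranking also made after the values were seen, miR-142a-3p was the most abundant minor arm of the 749 paired hairpins in each library. The next was miR-21a-3p with 3699 and 2149 RpM, and miR-223-5p came at place 7 in both libraries.

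**Figure D2:**
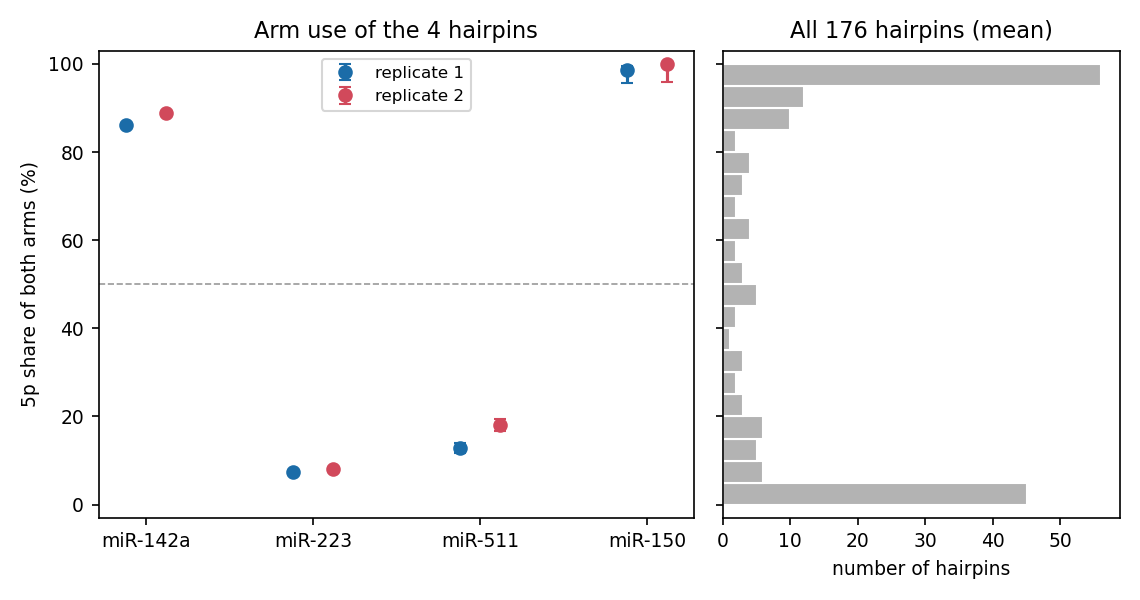
Share of the 5p arm among the counts of both arms, in percent, for miR-142a, miR-223, miR-511 and miR-150 in both libraries (left, bars are 95% Wilson intervals, dashed line at equal use), and the number of hairpins at each mean 5p share over all 176 hairpins with at least 100 counts summed (right). Most hairpins lie at either end, while miR-142a lies near 87.5% and miR-511 near 15.4%.

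Arm use differed between the libraries in 3 of the 4 hairpins, against a background of 31.2% of hairpins called by the same test. These 3 had high counts, and among the 113 hairpins with 1000 counts or more the background was 45.1%, while over the 305 with 10 counts or more it was 17.0%. The share of the 5p arm was higher in replicate 2 by 5.18 percentage points in miR-511 (adjusted p = 1.19e-08, Fisher's exact test adjusted over 176 hairpins), by 2.93 points in miR-142a (adjusted p = 1.18e-246, same exact test) and by 0.553 points in miR-223 (adjusted p = 0.00896, same exact test). For miR-150 the exact test gave an adjusted p of 0.784, with few counts. The 5p share was higher in replicate 2 in 4 of the 4 hairpins and in 83 of the 176. The test compares these libraries and covers counting error only, so a call says only that the counts of the libraries differ, preparation and PCR included. A difference wider than that of miR-511 was found in 26 hairpins, wider than that of miR-142a in 42 and wider than that of miR-223 in 102.

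Between the libraries, 7 of the 8 names were lower in replicate 2, miR-150-3p with its 3 counts included. Of all miRNAs whose counts in both libraries summed to 10 or more, 62.8% were lower there. Fisher's exact test of each count against the rest of its library, adjusted over the 588 miRNAs whose counts in both libraries summed to 10 or more, called 7 of the 7 names tested, against a background of 44.2% of all miRNAs. Calls were more frequent at high counts, since 82.4% were called among the 170 miRNAs that summed to 1000 counts or more. Lower in replicate 2 were 6 names (background 30.4%) and higher was 1, miR-511-5p (background 13.8%). With the log2 ratio taken as replicate 2 over replicate 1, the median was -0.34 over the 7 names and -0.16 over all 588 miRNAs. Over the 170 miRNAs that summed to 1000 counts or more, to which 6 of the 7 names belong, the median was -0.04. TMM scaling raised every log2 ratio by 0.13 and brought the median of all to -0.03. It also evened out the calls over all miRNAs, from 179 lower and 81 higher in replicate 2 to 137 lower and 122 higher, while 6 of the 7 names were again called lower and 1 higher.

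The widest difference was that of miR-150-5p, at a log2 ratio of -1.34 (adjusted p = 1.68e-13, Fisher's exact test), the single name among the 7 beyond 2-fold, where the background was 15.5%. miR-142a-3p followed at -0.73, with an adjusted p too small to be represented, as for miR-223-3p at -0.43 and miR-142a-5p at -0.34. Among the same 170 abundant miRNAs, 9 had a lower log2 ratio than miR-142a-3p and 36 a lower one than miR-142a-5p. miR-511-3p (-0.34, adjusted p = 2.93e-19) and miR-223-5p (-0.32, adjusted p = 7.05e-19) differed by nearly as much as miR-142a-5p in the same exact test. For miR-511-5p the log2 ratio was 0.24 (adjusted p = 0.0182, exact test), so the arms of miR-511 differed in opposite directions. Relative to the median of all miRNAs, the log2 ratios were -1.18 for miR-150-5p, -0.57 for miR-142a-3p, -0.27 for miR-223-3p, -0.18 for miR-142a-5p and for miR-511-3p, -0.16 for miR-223-5p and 0.40 for miR-511-5p, so the direction of none of the 7 depended on that shift. Expressed as a coefficient of variation over both libraries, the spread was 16.6% for miR-142a-5p, 35.0% for miR-142a-3p, 21.0% for miR-223-3p, 15.6% for miR-223-5p, 16.6% for miR-511-3p and 11.6% for miR-511-5p. The median over the same 170 miRNAs, to which these 6 belong, was 11.9%, so miR-511-5p lay just below it and the others above it. miR-150-5p, with fewer counts and outside that set, had 61.5%.

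**Figure D3:**
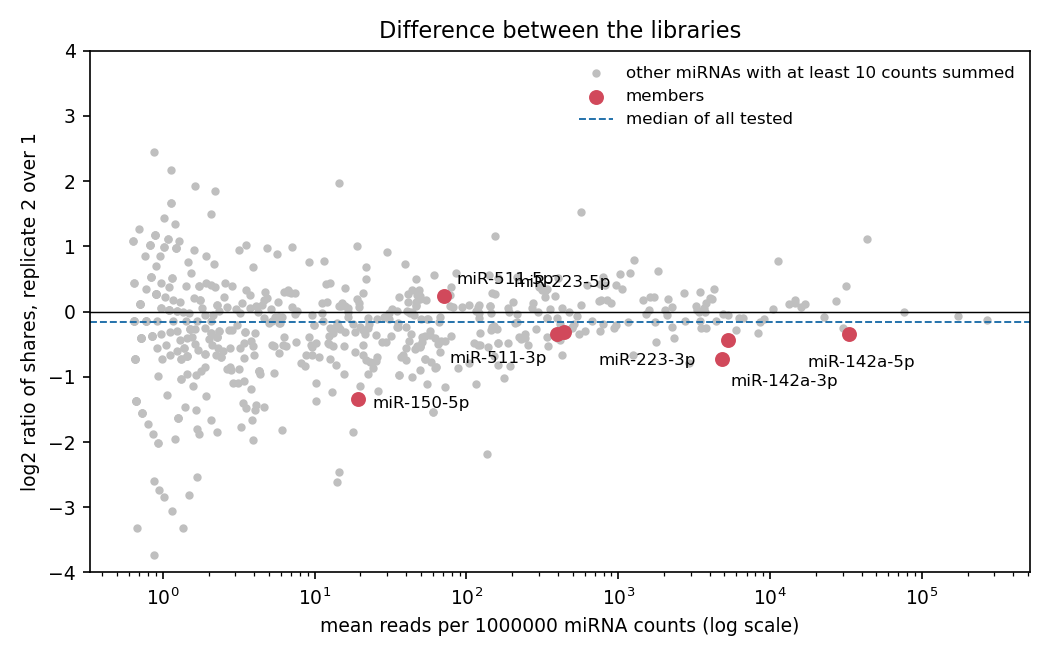
Log2 ratio of the share in replicate 2 to that in replicate 1 (vertical) against the mean level in reads per 1000000 miRNA counts on a log scale (horizontal) for 588 miRNAs whose counts summed to 10 or more. The members are in red, the solid line marks equal shares and the dashed line marks the median of all, -0.16; miR-150-5p lies lowest among the members and miR-511-5p is the one above both lines.

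Markers of other cell types were set beside these values as a check of the labelled cell type. The haematopoietic, myeloid and Mrc1-hosted miRNAs were all present, as described above. Of 23 miRNAs known as markers of erythroid, megakaryocyte or endothelial, epithelial, fibroblast or smooth muscle, muscle, neuronal or liver cells, 15 had at least 10 counts in both libraries and 4 had 0 counts in both (miR-1a-3p, miR-206-3p, miR-124-3p and miR-122-5p). The erythroid miR-451a had 7 and 8 counts. The highest levels were those of miR-486a-5p, at 540 and 455 RpM, and of miR-486b-5p, at 537 and 454 RpM, whose nearly equal counts could not be told apart from the same reads counted under both names. These levels were above those of miR-511-3p and far below those of miR-223-3p.

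The fibroblast and smooth muscle miRNA miR-143-3p had 187 and 117 RpM, and the epithelial miR-200b-3p had 67.7 and 102 RpM. The endothelial and megakaryocyte miR-126a-5p had 48.5 and 35.3 RpM. All of these levels were above those of miR-150-5p. Summed by list, the fibroblast and smooth muscle markers were 1.48-fold higher in replicate 1 (239 against 161 RpM), with 5 of 5 names at 10 counts or more in both libraries and miR-143-3p the most abundant. Of these 5, miR-199a-5p was the higher in replicate 2, at 8.15 against 6.69 RpM. The megakaryocyte and endothelial markers were 1.35-fold higher in replicate 1 (62.5 against 46.2 RpM, 2 of 2 names, miR-126a-5p the most abundant), and so were the erythroid markers, 1.19-fold (1079 against 910 RpM, 2 of 5 names, miR-486a-5p the most abundant). That sum is nearly all miR-486a-5p and miR-486b-5p, so it may hold the same reads counted under both names, and 2 of the 5 names, miR-451a and miR-144-5p with few counts, were higher in replicate 2. The epithelial markers were 1.08-fold higher in replicate 2 (185 against 171 RpM, 5 of 5 names, miR-200b-3p the most abundant), although 3 of the 5 were lower there. miR-200b-3p set that direction, while miR-141-3p had 59.1 RpM in replicate 1 and 43.0 in replicate 2 and miR-200c-3p had 15.6 and 10.7 RpM. The smallest of these differences, that of miR-200a-3p, had a log2 ratio of -0.05 with library totals and 0.08 with TMM. The remaining lists were near 0, with 0 and 0.741 RpM for muscle, all of it miR-133a-3p, 1.64 and 1.36 RpM for neurons, all of it miR-9-5p, and 0 RpM for liver. With both arms summed, miR-142a, miR-223, miR-511 and miR-150 were 1.31-, 1.34-, 1.19- and 2.57-fold higher in replicate 1. This was the direction of the fibroblast, megakaryocyte and erythroid sums and of 3 of the 5 epithelial names with library totals. It was also the direction of 62.8% of all miRNAs whose counts summed to 10 or more, and the median log2 ratio of all was -0.16. The part of other cells in the difference between the libraries was not tested.

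**Figure D4:**
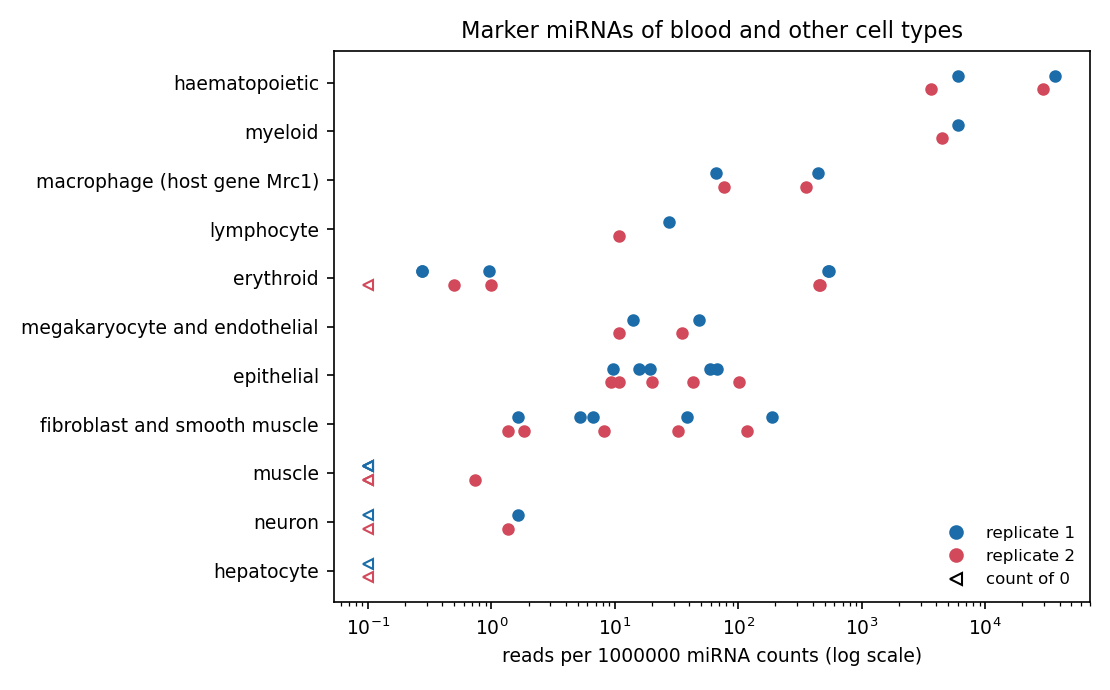
Level of each marker miRNA in replicate 1 and replicate 2, in reads per 1000000 miRNA counts on a log scale, grouped by the cell type it is known for; open triangles are counts of 0, drawn at the left edge. The haematopoietic and myeloid markers lie between 3626 and 37030 RpM, and the highest marker of another cell type, miR-486a-5p, is at 540 RpM.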

How the data were processed

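Small RNA libraries of unstimulated BMDMs were made by the authors with an Illumina small RNA kit after rRNA depletion. Reads were trimmed and aligned by the authors, using Bowtie, to the stem-loops of mouse in miRBase, and the authors deposited raw counts per mature miRNA name, without normalization. The miRBase release, mismatches allowed and handling of reads with several matches are not given in the sources used here, and they can shift counts between related names. A further library that the study describes was not analysed here.

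Counts were divided by library totals (7322969 and 8094314), with 95% Wilson intervals. A single condition allows no quasi-likelihood test. Libraries and arm use were compared by Fisher's exact tests (SciPy 1.17.1) with Benjamini-Hochberg adjustment at 0.05 over all miRNAs with at least 10, or hairpins with at least 100, counts summed. Both were tried on simulated data drawn with counting error alone, so the simulation does not cover other spread between replicates. Scaling alternatives used edgeR 4.0.16 and DESeq2 1.42.0 in R 4.3.3. Named were the 8 members, the miRNAs next in rank to each main arm, miR-21a-5p, names with the same number or seed, and marker lists. Members and lists were chosen with earlier results of these data known. miR-21a-3p and miR-221, outside that rule, were named after their values were seen. Pooled reads, each library alone, other totals, count minimums and thinning to equal totals were tried.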

Additional observations from a re-analysis of the deposited data

How the results depend on the processing

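Of 105 values under alternative settings, 12 differed by more than the spread of the libraries or, for counts, by over 1.5 times. Totals without miR-21a-5p raised shares by construction, to 4.54% for miR-142a-5p, 0.661% for miR-142a-3p, 0.722% for miR-223-3p, 0.0600% for miR-223-5p, 0.0544% for miR-511-3p, 0.00973% for miR-511-5p and 6.05% for miR-142a, miR-223 and miR-511 summed. A criterion of 2-fold in place of the adjusted p left 1 of 7 calls, miR-150-5p. The share of hairpins with a lower 5p use than miR-142a was 58.0%, 57.4% to 59.7% with either library left out and 63.3% with a minimum of 10 counts. With a minimum of 1000 counts it was 30.1% against 27.3% for miR-223 and 34.5% against 32.4% for miR-511. A minimum changes only which hairpins are ranked, 113 with 1000 counts, and why these differ in 5p use was not tested. Of the 7 names, 6 were called lower and 1 higher in replicate 2 under TMM and under DESeq2 scaling. Several settings had no power. A hairpin order that is the same in both libraries cannot change with scaling, other totals, pooling or a library alone. Each library alone, or pooled reads, must lie within 1 SD of a mean share of 2 libraries. The DESeq2 size factors were both 1, so DESeq2 shares equal the pooled ones. A library alone allows no comparison of libraries. No paired analysis was possible because there was 1 group. Depth limits miR-150-3p, at 3 counts and 0, which has no value with a minimum of 10 counts, as miR-150 has none with 1000.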

Other observations

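The first base of the arms was compared after the values were seen. Of the 176 hairpins with at least 100 counts summed, 131 had both mature sequences in the RefSeq list, and in 68 of these exactly one arm began with U. The arm with U was the main one in 56 of the 68, miR-223 among them, and the minor one in 12, miR-142a among them, since miR-142a-5p begins with C and miR-142a-3p with U. Among the names with a listed sequence, those that begin with C held 10.6% of the counts in replicate 1 and 10.1% in replicate 2, and miR-142a-5p alone made up 37.2% and 30.9% of these. These are descriptions of counts, and no test was made.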
